A study of Mus musculus with 18 samples.

Results

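The fibroblast growth factor (FGF) and platelet-derived growth factor (PDGF) genes described here are the ligands, receptors, adaptors and feedback inhibitors of these receptor tyrosine kinase pathways. They were chosen by gene symbol: the numbered Fgf genes except Fgf8, Fgfr1 to Fgfr4, Fgfrl1, Pdgfa, Pdgfb, Pdgfc, Pdgfd, Pdgfra, Pdgfrl, the adaptors Frs2, Frs3 and Flrt3, and the feedback genes Spry4, Spred1, Spred2 and Dusp6. The rule took 39 of the 78317 genes in the table. Of these, 28 passed the filter on low counts and were tested, among 16544 genes tested in all.

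FGF ligands bind FGF receptors together with heparan sulfate, and the receptors signal through the adaptor FRS2 to the RAS and MAP kinase pathway, while Sprouty and Spred proteins and the phosphatase DUSP6 dampen the signal. In the developing kidney, Fgf9 and Fgf20 are known for keeping nephron progenitors, and Fgf7 and Fgf10 for acting on the ureteric epithelium through Fgfr2. PDGF ligands act through Pdgfra and Pdgfrb, receptors known from the interstitial cells, pericytes and mesangial cells of the kidney.

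The libraries were made from kidneys of wild-type CD1 mouse embryos at embryonic day 14, which received an AAV2 vector for 4 hours and were then cultured for 72 hours in a gel of collagen I and Matrigel. Each vector carried the reporter mCherry under the CAG promoter, which is active in most cell types, and 2 miR30-based short hairpin RNA (shRNA) cassettes. The cassettes were aimed at Mylk (Mylk-shRNA), at Rock1 and Rock2 (Rock1/2-shRNA), or held rearranged Rock1 and Rock2 targets (scramble-shRNA), so every group, controls included, received a vector. After pooling of the cultures of a condition and digestion, the brightest 25% of cells by mCherry were kept as positive and the dimmest 50% as negative, which gave 6 groups of 3 libraries, 1 from each of 3 litters. The positive and negative libraries of a vector and litter came from the same pooled culture, so there were 9 cultures.

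A library held 3121210 to 12170300 counts, and the median was 4196940 for positive and 10915200 for negative libraries. Mitochondrial genes took 3.95 to 9.16% of the counts in the 6 libraries of litter 3 and 2.01 to 4.02% in the 12 others. Mylk, the target of Mylk-shRNA, had 175 ± 10.7 CPM (counts scaled to the library total, mean ± SD, n = 3) in the positive fraction with that vector and 197 ± 14.7 CPM with scramble-shRNA, a log2 difference of -0.19 ± 0.14 (SE) that did not pass the test. Rock1 and Rock2 in the positive fraction with Rock1/2-shRNA differed from scramble-shRNA by -0.09 ± 0.14 and -0.17 ± 0.16, and neither passed. No lowering of the targeted transcripts was therefore called. The 95% intervals of these log2 differences were -0.49 to 0.11 for Mylk, -0.38 to 0.21 for Rock1 and -0.50 to 0.15 for Rock2. A 2-fold lowering lay outside each interval, while a smaller lowering or none lay inside. Why no lowering was called was not tested. Markers of stroma, nephron progenitors, early nephrons and ureteric epithelium were detected, while Cubn of proximal tubule fell below the filter.

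The 11 genes below the filter were all ligands or FGF homologous factors: Fgf3, Fgf4, Fgf5, Fgf6, Fgf14, Fgf16, Fgf17, Fgf18, Fgf21, Fgf22 and Fgf23. The highest of them in any library was Fgf3, at 2.14 CPM. Fgf23, an endocrine phosphate-regulating ligand, had 0 counts in all 18 libraries. These genes were not tested.

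The comparison of the mCherry-positive with the mCherry-negative fraction asked which genes differed between the cells that reported most and least vector. Averaged over the 3 vectors, 7 of the 28 tested genes were higher and 12 lower in the positive fraction, and 9 did not pass (edgeR's quasi-likelihood test, Benjamini-Hochberg adjusted p under 0.05 over all genes tested). The same test called 33.6% of all genes, 17.6% higher and 16.0% lower. The median log2 fold change was -0.19 over the 28 genes and -0.03 over all genes tested. Fgf7 and Fgf15 reached the level that the filter on low counts asks for in 6 libraries of 1 fraction only, the one where each is high, so their entry into the test depended on that fraction. Of the other 26 genes, 17 were called, 6 higher and 11 lower. The 7 higher genes were Fgf2, Fgf7, Fgf12, Fgf13, Pdgfd, Pdgfra and Pdgfrl. In these bulk samples, fewer cells of a type and less RNA per cell cannot be told apart, and neither can vector uptake and the cell types that a fraction holds.

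**Figure D1:**
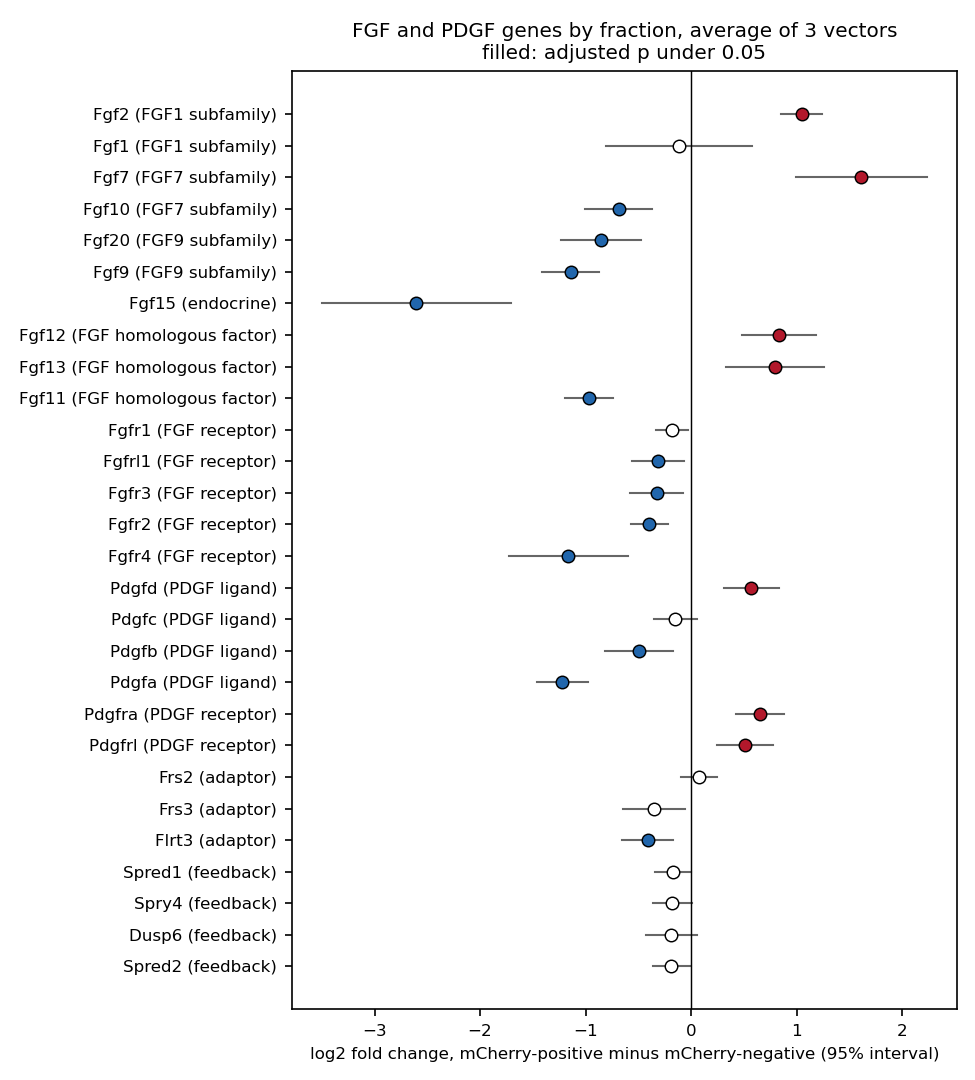
Log2 fold change of the 28 tested FGF and PDGF genes in the mCherry-positive against the mCherry-negative fraction, averaged over 3 vectors (horizontal axis, 95% intervals from the edgeR fit), ordered by role on the vertical axis. Filled points passed the test: 7 genes lie to the right of 0 and 12 to the left, all 5 FGF receptors lie left of 0 and both PDGF receptor genes lie right of it.

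Among the ligands, Fgf2 (ENSMUSG00000037225) and Fgf1 make up the FGF1 subfamily, whose proteins leave cells without a signal peptide. Fgf2 had 31.8, 37.6 and 50.03 CPM (lowest, median and highest of 9 libraries) in the positive fraction and 14.5, 17.5 and 21.6 CPM in the negative. All 9 positive libraries lay above all 9 negative ones. Fgf2 was 2.07-fold higher in the positive fraction (log2 fold change 1.05 ± 0.09 SE, adjusted p = 6.81e-08, higher in 9 of 9 cultures). Exons of Fgf2 overlap those of the opposite-strand gene Nudt6 in the GENCODE M21 annotation, and since the use of strand in counting is not given in the sources used here, reads of the pair cannot be told apart. Fgf1, which can bind every FGF receptor, had 1.24, 1.92 and 4.41 CPM in the positive and 1.61, 2.29 and 4.56 CPM in the negative fraction. The fractions overlapped, and the log2 difference of -0.12 had a 95% interval of -0.81 to 0.57.

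Fgf7 and Fgf10, both of the FGF7 subfamily of mesenchymal ligands for the epithelial form of Fgfr2, went in opposite directions. Fgf7 was low, with 0.947, 1.60 and 3.20 CPM (5 to 21 counts) in the positive fraction and 0.332, 0.514 and 0.885 CPM (2 to 8 counts) in the negative. The fractions did not overlap. Fgf7 was 3.06-fold higher in the positive fraction (log2 1.61 ± 0.30, adjusted p = 0.000311, higher in 9 of 9 cultures). It passed the filter through positive libraries alone, 6 of which reached the level and none of the negative ones, so it was tested only because it is high there. With no filter on low counts it was called on average (adjusted p = 9.63e-05), but lost its calls with Mylk-shRNA (0.0589) and Rock1/2-shRNA (0.0807). That fit uses the same reads and is no separate support. Fgf10 had 4.79, 6.66 and 12.6 CPM in the positive and 6.20, 11.5 and 15.1 CPM in the negative fraction, and these ranges overlapped. It was 1.61-fold lower in the positive fraction (log2 -0.69 ± 0.15, adjusted p = 0.00165), with the Mylk-shRNA culture of litter 2 alone at a higher positive value (12.6 against 11.3 CPM).

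Fgf9 and Fgf20, the closely related progenitor-maintaining ligands, were both lower in the positive fraction. Fgf9 (ENSMUSG00000021974) had 3.93, 6.37 and 8.97 CPM in the positive fraction and 8.98, 13.5 and 16.9 CPM in the negative. The highest positive library was just below the lowest negative one, so the fractions did not overlap. Fgf9 was 2.20-fold lower (log2 -1.14 ± 0.13, adjusted p = 1.26e-06, lower in 9 of 9 cultures). Fgf20 had 2.31, 3.57 and 5.92 CPM in the positive and 4.42, 5.91 and 8.46 CPM in the negative fraction. Its ranges overlapped through 1 positive library of Mylk-shRNA and litter 3, yet within each of the 9 cultures the positive value was the lower one. It was 1.81-fold lower (log2 -0.85 ± 0.18, adjusted p = 0.00119). Exons of Fgf20 overlap those of the opposite-strand gene Micu3 in GENCODE M21.

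The promoter windows of Fgf7, Fgf10, Fgf2 and Fgf9 are shown, chosen by result. Fgf7 and Fgf2 were higher in the positive fraction, and Fgf10 and Fgf9 lower. Fgf7 and Fgf10 share a subfamily, while Fgf2 and Fgf9 do not. RefSeq windows were found for 30 of the 39 genes, and each of these 4 has 1 listed start. Each line gives the 250 bases before that start, on the plus strand of GRCm38.p6, a build other than the one named for the counts. Capitals mark matches on either strand to the GC box GGGCGG or the CCAAT box, and the ETS core CCGGAA and the TATA box TATAAA were searched as well. The windows are chr2:126034408-126034657 for Fgf7, chr13:118714449-118714698 for Fgf10, chr3:37348403-37348652 for Fgf2 and chr14:58072436-58072685 for Fgf9.
Fgf7: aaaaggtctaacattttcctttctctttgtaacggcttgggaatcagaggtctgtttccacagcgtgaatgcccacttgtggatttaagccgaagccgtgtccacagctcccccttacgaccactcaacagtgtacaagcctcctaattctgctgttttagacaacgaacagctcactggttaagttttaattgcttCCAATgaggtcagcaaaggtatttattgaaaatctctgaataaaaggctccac
Fgf10: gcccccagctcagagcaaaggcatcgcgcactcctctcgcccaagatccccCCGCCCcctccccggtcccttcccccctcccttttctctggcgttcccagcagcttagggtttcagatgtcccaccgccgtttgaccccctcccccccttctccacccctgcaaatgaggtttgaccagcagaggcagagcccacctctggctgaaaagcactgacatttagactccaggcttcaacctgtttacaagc
Fgf2: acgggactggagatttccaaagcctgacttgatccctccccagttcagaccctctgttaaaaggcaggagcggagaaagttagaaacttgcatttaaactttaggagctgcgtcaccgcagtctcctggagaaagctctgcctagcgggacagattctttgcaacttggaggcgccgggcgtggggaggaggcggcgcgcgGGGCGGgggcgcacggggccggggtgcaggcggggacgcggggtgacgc
Fgf9: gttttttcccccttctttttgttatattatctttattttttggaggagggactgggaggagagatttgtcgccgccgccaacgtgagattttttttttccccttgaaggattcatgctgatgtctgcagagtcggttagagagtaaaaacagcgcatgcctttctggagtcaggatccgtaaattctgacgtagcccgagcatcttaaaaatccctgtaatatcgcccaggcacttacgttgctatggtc
The Fgf10 and Fgf2 windows each held 1 GC box match, a motif found in 32.7% of 32851 windows of this length. The Fgf7 window held 1 CCAAT match, found in 33.8%, and the Fgf9 window held none of the 4 motifs. No ETS core (12% of all windows) or TATA box (12.4%) match was in the 4 windows. G and C made up 62.4% of the Fgf2 window and 61.2% of the Fgf10 window, against 43.6% for Fgf7, 44.8% for Fgf9 and a median of 52.4% over all windows. The higher genes, Fgf2 and Fgf7, and the lower genes, Fgf10 and Fgf9, each held 1 window rich and 1 window poor in G and C.

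Fgf15, the mouse endocrine ligand best known from the intestine, was near the detection limit, with 0 to 3 counts (0 to 0.634 CPM) per positive library and 3 to 28 counts (0.771 to 2.47 CPM) per negative library. The fractions did not overlap, and Fgf15 was lower in the positive fraction by a fitted log2 of -2.60 ± 0.43 (adjusted p = 9.83e-05). It passed the filter through 6 negative libraries and no positive one. With no filter on low counts it was also called (adjusted p = 2.80e-09), but that fit uses the same reads and is no separate support. Its adjusted p was much smaller for some well-counted genes too, as for Pdgfa (1.84e-37 against 2.02e-07 with the filter). The size of the Fgf15 difference rests on very few reads.

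The FGF homologous factors stay inside the cell, where they bind voltage-gated sodium channels, and they are grouped with the ligands by sequence only. Fgf11 had 16.2, 20.5 and 29.3 CPM in the positive and 29.3, 43.6 and 55.8 CPM in the negative fraction. No positive library reached the lowest negative one, although the nearest values round to the same figure, and Fgf11 was 1.95-fold lower (log2 -0.97 ± 0.11, adjusted p = 1.34e-06). Fgf12 went the other way, with 2.82, 4.76 and 5.39 CPM in the positive and 1.64, 2.31 and 2.99 CPM in the negative fraction. It was 1.78-fold higher (log2 0.83 ± 0.17, adjusted p = 0.000657, 9 of 9 cultures), with overlap through the lowest positive value. Fgf13 was also higher (log2 0.79 ± 0.22, adjusted p = 0.00934), at 1.27, 3.10 and 4.38 against 0.822, 1.80 and 2.43 CPM, in 7 of 9 cultures.

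The 4 PDGF ligands did not move as a block: Pdgfa and Pdgfb were lower, Pdgfd was higher, and Pdgfc did not pass. Pdgfa (ENSMUSG00000025856), a ligand of Pdgfra, had 27.9, 33.6 and 44.4 CPM in the positive and 51.2, 77.9 and 96.5 CPM in the negative fraction. The fractions did not overlap, and Pdgfa was 2.33-fold lower (log2 -1.22 ± 0.12, adjusted p = 2.02e-07, 9 of 9 cultures). Pdgfb, the endothelial ligand that recruits pericytes through Pdgfrb, had 7.05, 13.6 and 23.1 CPM in the positive and 13.7, 20.2 and 23.4 CPM in the negative fraction. The ranges overlapped widely, and Pdgfb was 1.41-fold lower (log2 -0.50 ± 0.15, adjusted p = 0.0178), a call lost without the 6 libraries of litter 3 (adjusted p = 0.184). Pdgfd, another ligand of Pdgfrb, had 8.34, 9.82 and 13.1 CPM in the positive and 4.50, 6.96 and 9.48 CPM in the negative fraction. It was 1.49-fold higher (log2 0.57 ± 0.12, adjusted p = 0.00145), in 9 of 9 cultures but with overlapping ranges. Pdgfc, like Pdgfa a ligand of Pdgfra, had 62.2, 74.2 and 89.3 CPM in the positive and 50.3, 84.4 and 97.5 CPM in the negative fraction (log2 -0.15, 95% interval -0.35 to 0.05). Without litter 3, Pdgfc was called lower (adjusted p = 0.0266).

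**Figure D2:**
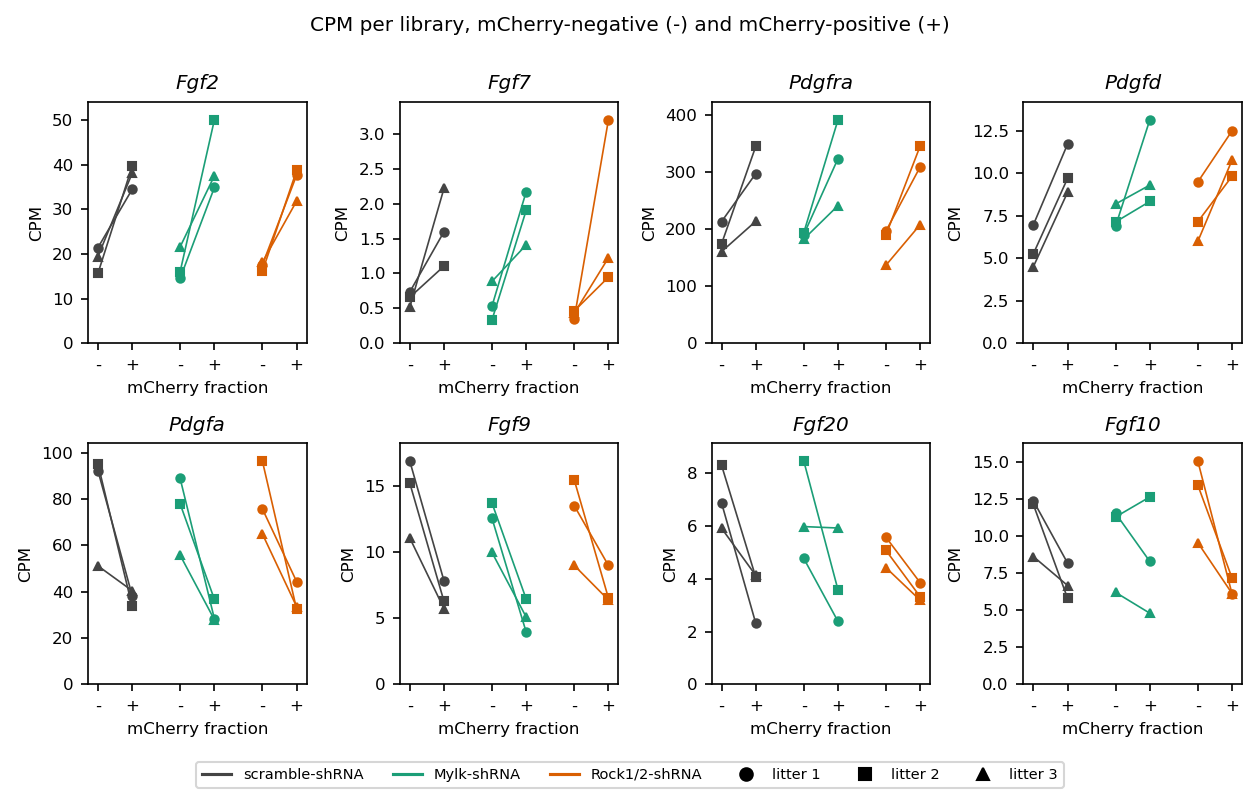
Deposited CPM (vertical axis, from 0) of 8 FGF and PDGF genes in each library, mCherry-negative (-) and mCherry-positive (+) on the horizontal axis. Lines join the fractions of 1 culture, colours mark the vector and symbols the litter. Fgf2, Fgf7, Pdgfra and Pdgfd rise along all 9 lines, Pdgfa, Fgf9 and Fgf20 fall along all 9, and Fgf10 falls along all but the Mylk-shRNA line of litter 2.

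Of the 5 FGF receptor genes, 4 were called lower in the positive fraction, against 16.0% of all genes, and none was called higher. The calls of Fgfr3 and Fgfrl1 lay close to the threshold. Both PDGF receptor genes of the 28, Pdgfra and the receptor-like Pdgfrl, were higher, against 17.6% of all genes. Pdgfra (ENSMUSG00000029231), the receptor marking many stromal cells, had 208, 309 and 391 CPM in the positive and 137, 190 and 213 CPM in the negative fraction. The overlap came from 1 positive library, Rock1/2-shRNA of litter 3 at 208 CPM, which lay below 1 negative library, scramble-shRNA of litter 1 at 213 CPM. In litter 3 the positive libraries had 208, 213 and 241 CPM, the lowest of the 9. Pdgfra was 1.57-fold higher in the positive fraction (log2 0.65 ± 0.11, adjusted p = 0.000109, higher in 9 of 9 cultures). Pdgfrl, which encodes a receptor-like protein without a kinase domain, had 17.5, 21.4 and 26.7 CPM in the positive and 7.52, 16.0 and 18.5 CPM in the negative fraction (log2 0.51 ± 0.13, adjusted p = 0.00391, 9 of 9 cultures). Its ranges overlapped as well. The receptor Pdgfra was higher in the fraction where its ligand Pdgfa was lower.

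Fgfr2 (ENSMUSG00000030849), the receptor of ureteric epithelium for Fgf7 and Fgf10, had 51.7, 67.7 and 81.8 CPM in the positive and 64.7, 89.3 and 94.7 CPM in the negative fraction. It was lower by log2 -0.40 ± 0.08 (adjusted p = 0.00127), in 9 of 9 cultures although the ranges overlapped. Fgfr4 was 2.24-fold lower (log2 -1.17 ± 0.27, adjusted p = 0.00232), at 1.47, 2.01 and 4.76 against 1.80, 4.49 and 8.39 CPM. The scramble-shRNA culture of litter 3 went the other way for Fgfr4, at 4.76 CPM positive and 1.80 CPM negative. Fgfr3 (log2 -0.33 ± 0.12, adjusted p = 0.0440) and Fgfrl1 (log2 -0.31 ± 0.12, adjusted p = 0.0453) were lower by small amounts close to the threshold. Fgfrl1 binds FGFs but lacks the kinase domain. Each of the 2 calls was lost in 13 of 18 fits that left out 1 library, and that of Fgfr3 also with DESeq2 (adjusted p = 0.0589), with no filter on low counts (0.0916) and without litter 3 (0.170).

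Fgfr1, a receptor of both nephron progenitors and stroma, had 374, 392 and 434 CPM in the positive and 333, 444 and 501 CPM in the negative fraction. The positive values all lay within the negative range. The log2 difference of -0.18 ± 0.07 did not pass (adjusted p = 0.0588), but did with litter as a replicate block (adjusted p = 0.0170). Fgfr1 was also called lower with the culture as a block (0.0316), with DESeq2's test (0.0256) and without litter 3 (0.00616).

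Among the adaptors, Flrt3, a transmembrane protein that binds FGF receptors, was lower (log2 -0.41 ± 0.11, adjusted p = 0.00923), with 17.7, 20.9 and 30.7 CPM in the positive and 22, 29.4 and 39.6 CPM in the negative fraction, which overlapped. Frs2, the main FGF receptor adaptor, had 23.4, 30.1 and 43.0 against 24.3, 29.7 and 33.1 CPM (log2 0.08, 95% interval -0.10 to 0.25). Its relative Frs3 had 7.31, 7.75 and 11.9 against 6.20, 9.85 and 14 CPM and did not pass (log2 -0.35 ± 0.14, adjusted p = 0.0582). Frs3 passed with litter as a replicate block (adjusted p = 0.0221), with the culture as a block (0.0250) and without litter 3 (0.0237).

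None of the 4 feedback genes passed the test, and all 4 had log2 differences between -0.19 and -0.17. Spry4, a Sprouty protein that blocks RAS activation, had 57.4, 69.6 and 84.6 CPM in the positive and 59.4, 70.7 and 93.8 CPM in the negative fraction. Spred1 had 126, 155 and 187 against 135, 170 and 196 CPM, and Spred2 had 82.9, 105 and 124 against 91.8, 119 and 150 CPM. Both encode membrane-bound inhibitors of RAS and RAF. Dusp6, the phosphatase that inactivates ERK, had 55.8, 67.5 and 91.9 against 53.5, 83.2 and 94.0 CPM. The fractions overlapped for each of the 4 genes. With litter as a replicate block, Dusp6 (adjusted p = 0.0142), Spred1 (0.00985) and Spred2 (0.00296) were called lower, while Spry4 was not (0.110). With that block, 24 of the 28 genes were called, 7 higher and 17 lower, and so were 45.8% of all genes, 22.2% higher and 23.5% lower.

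**Figure D3:**
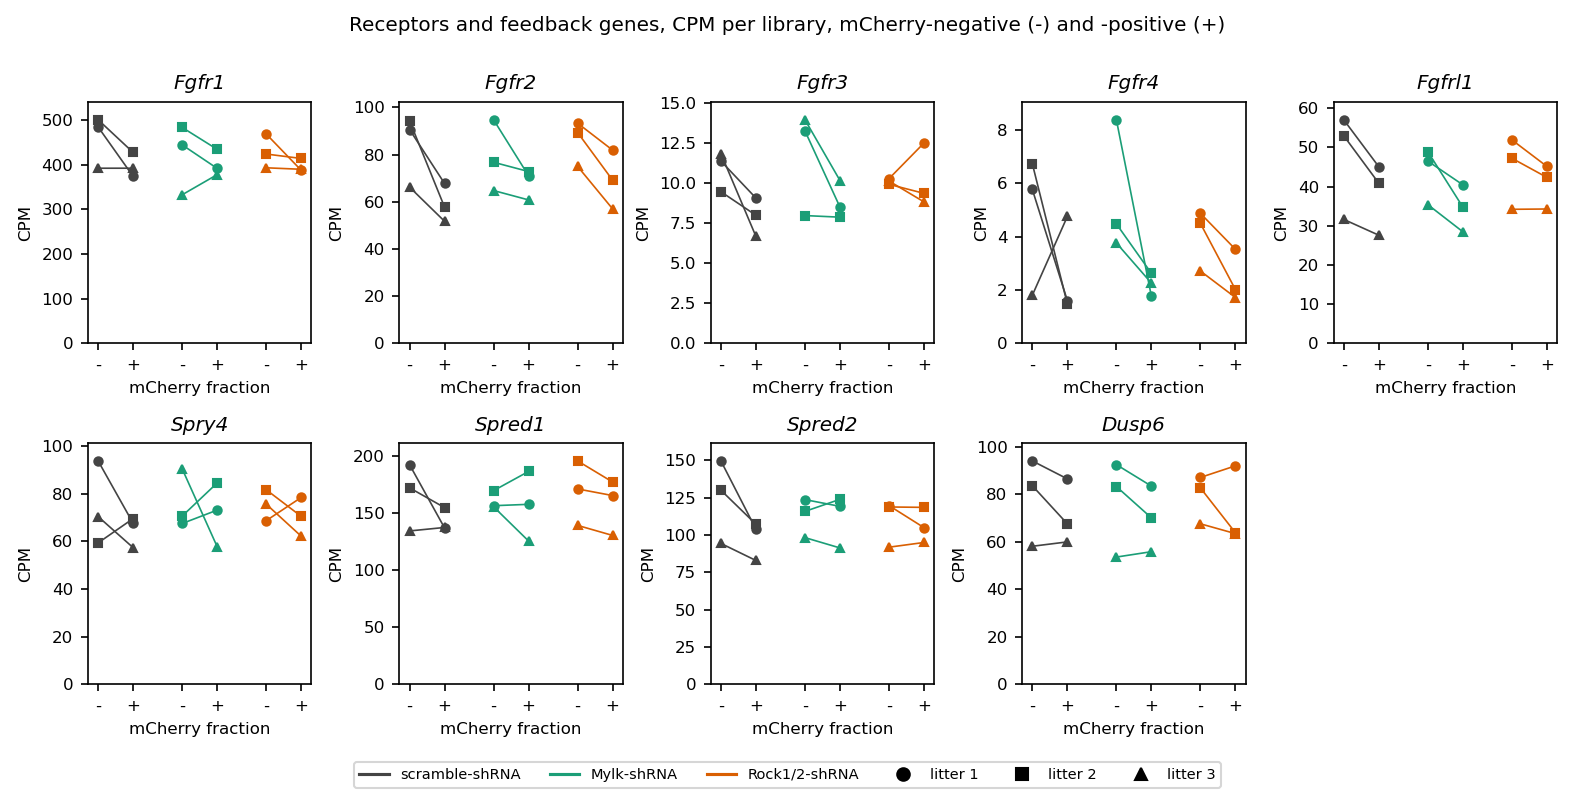
Deposited CPM (vertical axis, from 0) of the 5 FGF receptor genes and 4 feedback genes per library, mCherry-negative (-) and mCherry-positive (+) on the horizontal axis, with lines joining the fractions of 1 culture, colours for vectors and symbols for litters. Fgfr2 falls along all 9 lines, while lines of Spry4, Spred1, Spred2 and Dusp6 run in both directions. Triangles of litter 3 lie low for Fgfrl1, Spred2 and Dusp6.

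The litters differed for several of these genes within both fractions. Dusp6 had 53.5 to 67.5 CPM in the 6 libraries of litter 3 and 63.8 to 94.0 CPM in the 12 libraries of litters 1 and 2. Spred2 had 82.9 to 98.2 CPM in litter 3 and 104 to 150 CPM in the others, with no overlap. Fgfrl1 had 27.6 to 35.4 against 34.8 to 57.1 CPM. Fgf1 lay the other way, with 3.08 to 4.56 CPM in litter 3 and 1.24 to 4.29 CPM in the others. Litter 3 was also the litter with the higher mitochondrial share, and the part of that share in these differences was not tested.

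Within single vectors, fewer genes passed, with 3 libraries a group. The counts include Fgf7 and Fgf15 where called, and these 2 genes entered the test only through the fraction where each is high. With scramble-shRNA, 10 of the 28 genes were called, against 12.3% of all genes. Of these, 4 were higher (Fgf2, Fgf12, Pdgfd and Pdgfra, against 7.43% of all genes) and 6 lower (Pdgfa, Fgf9, Fgf11, Fgfr2, Fgf20 and Fgf15, against 4.85%). With Mylk-shRNA, 8 were called, against 13.2% of all genes: Fgf2, Fgf7 and Pdgfra higher (8.07% of all genes) and Pdgfa, Fgf9, Fgf11, Fgf15 and Fgfr4 lower (5.14%). With Rock1/2-shRNA, 8 were called, against 11.2%: Fgf2, Fgf7, Fgf12 and Pdgfra higher (6.94%) and Pdgfa, Fgf9, Fgf10 and Fgf11 lower (4.30%). With litter as a replicate block, the counts were 17 with scramble-shRNA, 12 with Mylk-shRNA and 13 with Rock1/2-shRNA, against 23.3%, 24.3% and 20.4% of all genes in the same fits. With no filter on low counts, Fgf7 lost its calls with Mylk-shRNA (adjusted p = 0.0589) and Rock1/2-shRNA (0.0807), Fgf12 its calls with scramble-shRNA and Rock1/2-shRNA, and Pdgfd its call with scramble-shRNA. Leaving out 1 library gave 4 to 12 calls with scramble-shRNA, 5 to 8 with Mylk-shRNA and 3 to 9 with Rock1/2-shRNA, lowest without positive or negative replicate 2 of scramble-shRNA, positive replicate 1 or 2 of Mylk-shRNA and negative replicate 2 of Rock1/2-shRNA.

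Fgf2, Pdgfra, Pdgfa, Fgf9 and Fgf11 passed with every vector. Fgf2 had 34.4, 39.7 and 38.1 CPM (litters 1, 2 and 3) in the positive and 21.4, 15.6 and 19.4 CPM in the negative fraction of scramble-shRNA, and its log2 differences were 0.95 with scramble-shRNA, 1.18 with Mylk-shRNA and 1.02 with Rock1/2-shRNA. Pdgfa had 38.3, 33.6 and 40.4 CPM in the positive and 92.3, 95.2 and 51.2 CPM in the negative fraction of scramble-shRNA, and log2 differences of -1.15, -1.34 and -1.17 in the same order of vectors. Those of Pdgfra were 0.60, 0.68 and 0.67. Each of the 19 genes called on average had the same sign with all 3 vectors. Fgf12 had the smallest p of the 28 genes for the interaction of Mylk-shRNA with fraction: its log2 difference was 1.04 ± 0.29 with scramble-shRNA and 0.35 ± 0.29 with Mylk-shRNA, but the test of that difference did not pass (-0.70 ± 0.41, unadjusted p = 0.105).

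The comparison of the knockdown vectors with scramble-shRNA asked whether the hairpins against Mylk or Rock1 and Rock2 changed expression within a fraction. No FGF or PDGF gene was called, and 0% of all genes were, in each of 8 comparisons: Mylk-shRNA and Rock1/2-shRNA against scramble-shRNA and against each other in both fractions, and the interaction of each knockdown vector with fraction. At an unadjusted p under 0.05, edgeR passed 258, 145, 285 and 200 of the 16544 genes in the 4 comparisons with scramble-shRNA (Mylk-shRNA positive, Rock1/2-shRNA positive, Mylk-shRNA negative and Rock1/2-shRNA negative), and DESeq2 passed 154, 79, 219 and 152. DESeq2 also called 0 genes after adjustment. The edgeR counts were 1.56, 0.876, 1.72 and 1.21% of all genes in the same order. Each is below a share of 0.05, which this threshold would pass with no difference at all. For Mylk-shRNA against Rock1/2-shRNA the unadjusted counts were 199 by edgeR and 100 by DESeq2 in the positive fraction and 121 and 71 in the negative. For the interactions they were 217 and 138 with Mylk-shRNA, and 145 and 90 with Rock1/2-shRNA.

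In the positive fraction the smallest unadjusted p with Mylk-shRNA was that of Fgf9. It had 3.93, 6.43 and 5.07 CPM with this vector. The scramble-shRNA libraries had 7.81, 6.26 and 5.71 CPM, and those of Rock1/2-shRNA 8.97, 6.51 and 6.37 CPM. The Mylk-shRNA and scramble-shRNA values overlapped, and the log2 difference was -0.44 ± 0.25 (95% interval -0.96 to 0.08). Against Rock1/2-shRNA the log2 difference of Fgf9 was -0.54 ± 0.25 (unadjusted p = 0.0464 by edgeR, adjusted p = 1.00), the only one of the 28 genes under 0.05 there, and none was by DESeq2. Pdgfa (log2 -0.29 ± 0.21) and Fgfr2 (log2 0.19 ± 0.15) came next with Mylk-shRNA. With Rock1/2-shRNA the smallest p values were those of Pdgfrl (log2 -0.35 ± 0.22), Fgfr3 (0.33 ± 0.22) and Fgfr2 (0.22 ± 0.15).

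In the negative fraction Fgf11 had 52.1, 37.9 and 55.8 CPM with Mylk-shRNA against 44.6, 29.3 and 32.4 CPM in the scramble-shRNA libraries. The groups overlapped, and the log2 difference was 0.44 ± 0.18 (unadjusted p = 0.0226, adjusted p = 1.00). No other of the 28 genes was under 0.05 in that comparison. With Rock1/2-shRNA, Fgf20 had 5.57, 5.07 and 4.42 CPM against 6.87, 8.30 and 5.91 CPM with scramble-shRNA. The log2 difference of -0.50 ± 0.28 did not pass (unadjusted p = 0.0945 by edgeR). The smallest unadjusted p of the 28 genes there was 0.0702 by edgeR. Pdgfd had log2 differences of 0.36 ± 0.22 with Mylk-shRNA and 0.41 ± 0.22 with Rock1/2-shRNA. Both share the scramble-shRNA libraries.

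The intervals show what size of change these comparisons could miss. A 2-fold change in either direction lay outside the 95% interval for 24 of the 28 genes with Mylk-shRNA in each fraction and for 22 with Rock1/2-shRNA in each fraction. Fgf1, Fgf7 and Fgf15, the low ligands, had intervals reaching 2-fold in all 4 comparisons. For Pdgfra in the positive fraction the intervals were -0.26 to 0.52 with Mylk-shRNA and -0.39 to 0.40 with Rock1/2-shRNA.

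**Figure D4:**
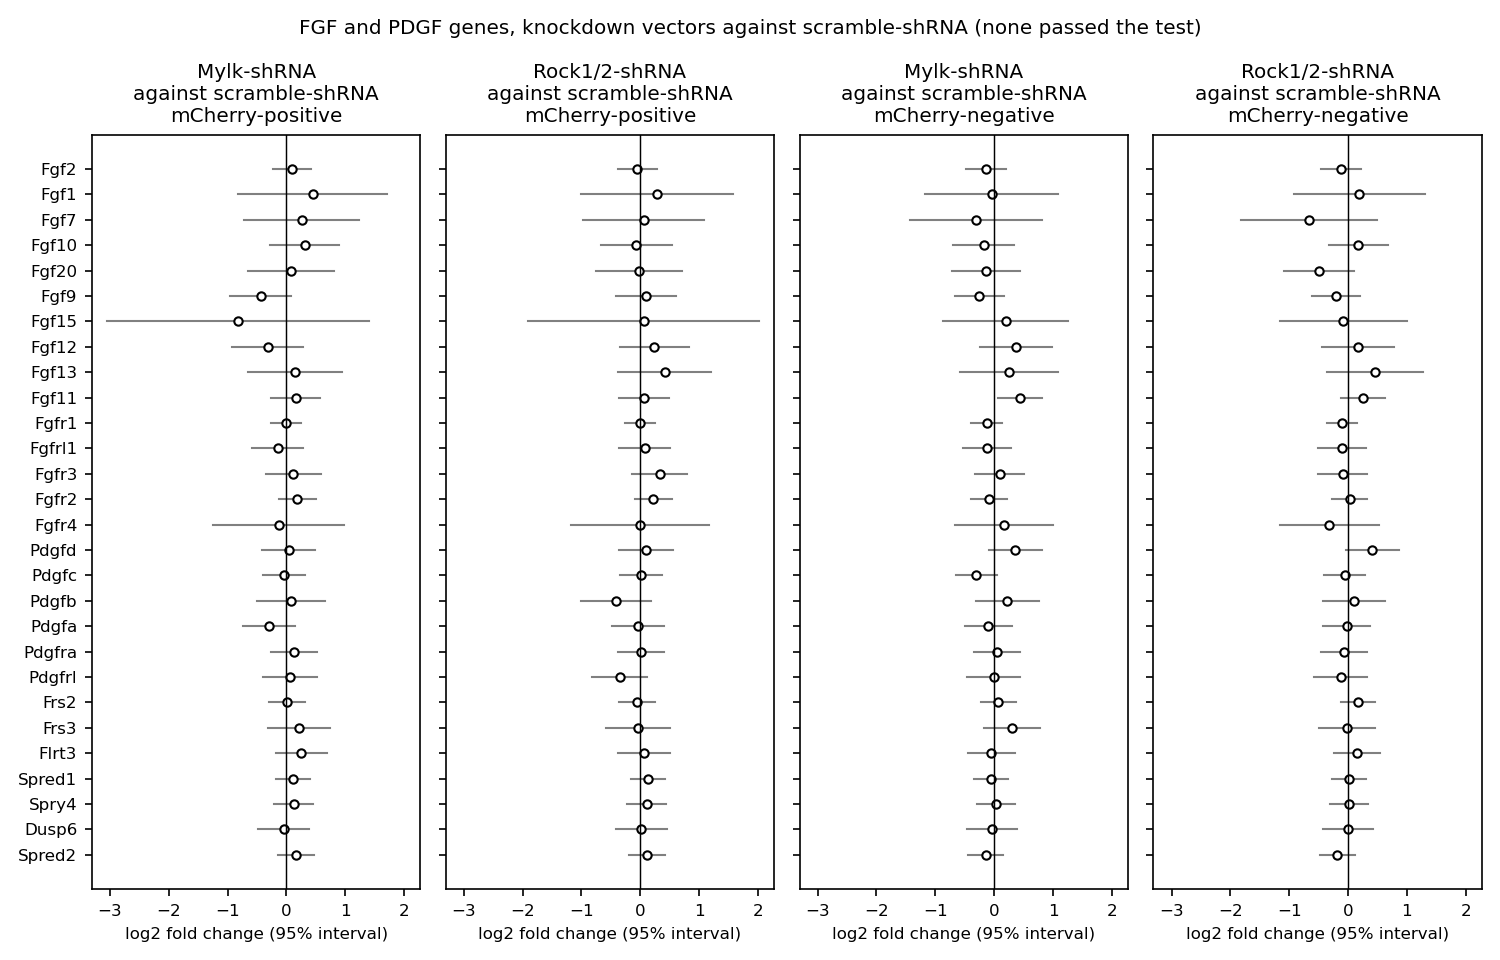
Log2 fold changes (horizontal axis, 95% intervals from the edgeR fit) of the 28 tested FGF and PDGF genes for each knockdown vector against scramble-shRNA in the mCherry-positive and mCherry-negative fractions. All points are open because none passed the test; the interval of Fgf11 with Mylk-shRNA in the negative fraction is the only one that excludes 0.

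Other genes of the pathway were read from a list of coreceptors, relay proteins and transcriptional targets. Of 38 tested, 5 were higher and 13 lower in the positive fraction, averaged over vectors, shares of 13.2% and 34.2% against 17.6% and 16.0% of all genes. The targets held most of the lower genes: 10 of 12 were lower, with a median log2 fold change of -0.61 against -0.03 over all genes. They included the ETS factors Etv1 (log2 -0.86 ± 0.07), Etv4 (-0.61 ± 0.11) and Etv5 (-0.36 ± 0.11), which FGF signalling is known to induce, and the Sprouty genes Spry1 (-0.35 ± 0.06) and Spry2 (-0.27 ± 0.07). The phosphatases Dusp4 (-0.81 ± 0.16) and Dusp5 (-0.85 ± 0.09), the cyclin Ccnd1 (-1.17 ± 0.11), Spred3 (-0.61 ± 0.21) and the nephron-forming ligand Fgf8 (-1.55 ± 0.20) were lower as well. Phlda1 was higher (0.26 ± 0.08), and Egr1 did not pass (0.38 ± 0.51).

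Among 9 coreceptors and related surface proteins, Pdgfrb was higher (log2 0.64 ± 0.08, adjusted p = 9.49e-06) and Il17rd, an inhibitor of FGF signalling also called Sef, was lower (-1.12 ± 0.12, adjusted p = 4.34e-07). With Pdgfra and the receptor-like Pdgfrl, all 3 such genes tested here were higher in the positive fraction, against 17.6% of all genes. Of 17 relay genes, Gab1 (0.36 ± 0.09), Shc1 (0.24 ± 0.08) and Mapk3 (0.18 ± 0.06) were higher and Nras (-0.29 ± 0.05) and Map2k1 (-0.38 ± 0.08) lower, and 12 did not pass. The share called was 29.4% of the relay genes and 22.2% of the coreceptors, both under the 33.6% of all genes.

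Cell type markers moved with the same comparison. Of 7 stromal markers, 6 were higher in the positive fraction, with a summed level of 3646 to 5219 CPM against 2666 to 3295 CPM. Smooth muscle and pericyte markers were higher for 5 of 6 genes (321 to 956 against 120 to 234 CPM), and all 4 macrophage markers were higher (69.2 to 187 against 1.56 to 5.31 CPM). Of the nephron progenitor markers 5 of 6 were lower (487 to 713 against 462 to 1079 CPM), as were 4 of 4 early nephron markers (170 to 225 against 375 to 666 CPM) and 5 of 6 ureteric markers (45.1 to 78.9 against 79.7 to 126 CPM). Endothelial markers were mixed, with 2 of 6 higher and 3 lower (120 to 215 against 155 to 245 CPM). All 3 erythroid markers tested were higher (140 to 1272 against 54 to 275 CPM for the 4 listed), while 1 of 3 tested proximal tubule and 1 of 2 tested neural and Schwann markers were lower and none of 4 dissociation and immediate early genes passed. Over all genes, 17.6% were higher and 16.0% lower. The part of these cell type differences in the FGF and PDGF results was not tested.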

How the data were processed

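Per the labels' protocols, poly(A) RNA of sorted cells was tagmented and sequenced. The authors deposited estimated counts, which need not be whole (22.1 to 27.4% of the values above 0 in each library were not whole), and CPM values, which are the authors' counts scaled to the library's sum. Per the submitters' processing notes, the tools included fastp 0.24.0, STAR 2.7.11 and featureCounts of Subread 2.1.1, with build GRCm39. How each was set, which annotation was used and whether strand counted is not given in the sources used here. Of the tested genes, 10 have opposite-strand and 4 have same-strand exon overlaps with other genes in GENCODE M21. How many of their reads this affects was not measured.

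Counts were rounded and 92 ERCC spike-in rows left out. Low genes were removed by filterByExpr of edgeR (count of 10, total of 15), and libraries were scaled by TMM and tested with edgeR's quasi-likelihood test on all 18 libraries with 6 group means, so that all comparisons use the same spread (12 residual degrees of freedom). Benjamini-Hochberg adjustment ran over the 16544 genes, separately for 12 comparisons, a gene was called at an adjusted p under 0.05, and every adjusted p is from this edgeR fit unless another is named. They rest on the spread between the litters within a group. The fit treats the 18 libraries as independent, although the positive and negative libraries of a vector and litter came from the same culture. Intervals are 95%, and errors of log2 fold changes are standard errors. The software was DESeq2 1.42.0 and edgeR 4.0.16 in R 4.3.3. The tests were tried on simulated counts.

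The genes, the lists and the comparisons were chosen with earlier results of these data known. Every gene of the rule could be named, with full values for those called in any comparison, for the main receptors and ligands and for the smallest p in each knockdown comparison.

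The replicate number is the litter, per the labels. Deviations from group means correlated with r = 0.237 to 0.639 over 45 pairs of libraries of 1 litter and -0.544 to 0.310 over 90 pairs of different litters. Litter was therefore also fitted as a replicate block. Other alternatives were the culture as a block, DESeq2's size factors, DESeq2's test, no filter, only the compared groups, and leaving out litter 3 or each library. Libraries of a group differed by more than sampling noise (chi-square per gene 3.87 to 48.5 over 18 pairs).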

Additional observations from a re-analysis of the deposited data

Results flagged for a closer look

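In 4 of 56 groups of 9 libraries (28 genes in each fraction) 1 library lay apart from the others by its gap relative to the group's range, where chance would set apart about 1 in 20 groups. All 4 were positive Mylk-shRNA libraries. Fgf10 had 12.6 CPM in litter 2, and the next library 8.28 CPM. Fgf2 had 50.03 CPM in litter 2, and the next 39.7 CPM. Fgf20 had 5.92 CPM in litter 3, and the next 4.12 CPM. Frs3 had 11.9 CPM in litter 1, and the next 8.56 CPM. Outside the gene table, ERCC spike-in rows held between 8 and 31 summed counts per library. No FGF or PDGF gene passed the test of a difference in the fraction effect between vectors (0 interactions called).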

How the results depend on the processing

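Averaged over vectors, the 6 higher FGF and PDGF genes that reached the filter's level in both fractions stayed called in every alternative run. Fgf7, tested only because it is high in positive libraries, stayed called too. All these runs use the same reads and are no separate support. The number called, with Fgf7 and Fgf15 among the genes tested, ran from 17 to 20 in fits without 1 library. In single vectors the counts moved more. With scramble-shRNA (10 called) they were 17 with litter as a replicate block, 16 with culture as a block, 16 without litter 3 and 4 to 12 without 1 library: 6 and 4 without positive replicates 1 and 2, and 5 and 4 without negative replicates 1 and 2. With Rock1/2-shRNA (8 called) they were 13 with the litter replicate block and 3 to 9 without 1 library: 5 and 5 without positive replicates 1 and 2, and 3 and 5 without negative replicates 2 and 3. With Mylk-shRNA (8 called) they were 12 with the litter replicate block, 11 with the culture block and 5 to 8 without 1 library, with 5 without positive replicate 1 or 2. Over all genes, the calls were 2032 with scramble-shRNA (3848 with the litter replicate block, 3466 with the culture block, 1182 to 2367 without 1 library). With Mylk-shRNA they were 2186 (4019, 3674, 1416 to 2438, and 1303 with only the compared groups). With Rock1/2-shRNA they were 1859 (3369, 3026, 1167 to 2077). Fgf1, not called (-0.12), had log2 fold changes from -0.33 to 0.05 without 1 library, and was above 0 without Rock1/2-shRNA negative replicate 3 (0.0491) or positive replicate 2 (0.0308) and without Mylk-shRNA positive replicate 1 (0.0456) or negative replicate 3 (0.0173). The cause of these shifts was not tested. The replicate block left every knockdown comparison and interaction at 0 calls. Only the compared groups is the same fit as the one used for the average over vectors. Depth limits Fgf7 and Fgf15, with at most 21 and 28 counts in a library.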
